A study of Homo sapiens with 4 samples.

Results

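The SLC25 family comprises the carriers that move metabolites, nucleotides, cofactors and ions across the inner membrane of mitochondria. Its members were taken by symbol, as every gene of the deposited table whose symbol is SLC25A followed by a number, and not by how they moved. This gave 40 of the 14431 genes listed, from a roster of 48 family symbols. The other 8 symbols (SLC25A2, SLC25A18, SLC25A27, SLC25A31, SLC25A41, SLC25A47, SLC25A48 and SLC25A52) were not among the genes listed and were not analysed here. Every gene listed was above 1 CPM (read counts scaled to the size of the library) in at least 1 library, but the filter behind the list is not stated. All 40 members listed passed the filter on low values (a group mean of 1 CPM or more), and 39 of them were above 1 CPM in all 4 libraries, with SLC25A34 as the exception.

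SLC25 carriers are encoded in the nucleus, made in the cytosol and inserted into the inner membrane by the TIM22 complex, and most of them exchange a substrate of the matrix for one of the cytosol. The ADP/ATP and phosphate carriers feed ATP synthase, the citrate, oxoglutarate and aspartate/glutamate carriers link mitochondrial oxidation to the redox state and biosynthesis of the cytosol, and other members bring in acylcarnitines, folate, coenzyme A, iron or glutathione. The aspartate/glutamate and oxoglutarate carriers are the membrane part of the malate-aspartate shuttle, through which cells that oxidize lactate pass the cytosolic NADH made by lactate dehydrogenase on to the mitochondria.

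RNA-seq had been done on HGC27, an established human gastric cancer cell line, in 2 control libraries and 2 libraries of cells that received a small interfering RNA against AARS1 (siAARS1). AARS1 encodes the cytosolic alanyl-tRNA synthetase, which charges tRNA with alanine and which the study examined as an enzyme that adds lactate to lysines of proteins. Both groups were kept in DMEM lacking glucose, with serum and antibiotics, and received lactate at 25 mM, for 24 h by the labels and for another time by the text of the study, so every difference below is one between knockdown and control under lactate. The labels do not say that the replicates were separate cultures, so p-values measure only the spread between these libraries.

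The libraries held 30653210 to 33522573 reads in the listed genes. AARS1 (listed as AARS) stood at 428 and 417 CPM in the controls and at 292 and 298 CPM after siAARS1, which is 69.7% of the control mean, so the knockdown was partial at the RNA level (log2 fold change -0.52, SE 0.0357, adjusted p = 2.52e-11, limma). None of the 7 gastric epithelial markers examined (TFF1, TFF2, MUC5AC, MUC6, GKN1, ATP4B and PGC) was among the genes listed. Of 5 general epithelial markers only CDH1 and KRT8 were listed, with a summed level of 27.0 to 27.3 CPM in the control and 6.14 to 7.29 CPM in the siAARS1 libraries. The 3 mesenchymal markers listed of 4 (VIM, ZEB1 and FN1) summed to 5150 to 5209 CPM and to 4704 to 4814 CPM, a sum set by VIM, while ZEB1 rose from 6.16 and 6.84 CPM to 50.03 and 52.3 CPM (log2 fold change 2.80). All 4 fibroblast markers (COL1A1, COL1A2, DCN and PDGFRB) were listed and summed to 2702 to 2796 CPM and to 1881 to 1970 CPM, of which 3 fell and DCN rose (0.11, and -0.11 under median scaling). After the correction for GC content and length (below) all 4 were lower, with DCN at -1.33. With this correction ZEB1 was still higher (1.75), FN1 still lower (-0.43) and VIM turned from -0.13 to 0.14. None of 3 endothelial markers was listed. The part of these shifts in the carrier results was not tested.

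The promoters of the 3 members that the results turn on most are shown first: SLC25A36, the member with the largest rise, SLC25A46, the only member whose rise kept its call in every alternative analysis, and SLC25A29, the member with the largest fall. Each is the 250 bases before the RefSeq start of the gene on GRCh38.p14, read on the strand of the gene, with the E-box CACGTG and the CCAAT box (CCAAT or, on the other strand, ATTGG) in capitals. SLC25A36 lies on the plus strand, at chr3:140941586-140941835, SLC25A46 on the plus strand, at chr5:110738757-110739006, and SLC25A29 on the minus strand, at chr14:100306445-100306694. For SLC25A46 this window lies inside the span of the gene in GENCODE v29, which has an earlier start, at 110738136, and for SLC25A29 the GENCODE v29 gene reaches to 100306547, so the CCAAT box nearer to the start lies within it.
SLC25A36: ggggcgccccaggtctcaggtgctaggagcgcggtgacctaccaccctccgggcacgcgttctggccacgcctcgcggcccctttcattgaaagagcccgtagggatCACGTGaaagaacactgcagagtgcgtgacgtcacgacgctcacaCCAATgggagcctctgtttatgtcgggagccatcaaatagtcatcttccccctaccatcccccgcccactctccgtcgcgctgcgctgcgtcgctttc
SLC25A46: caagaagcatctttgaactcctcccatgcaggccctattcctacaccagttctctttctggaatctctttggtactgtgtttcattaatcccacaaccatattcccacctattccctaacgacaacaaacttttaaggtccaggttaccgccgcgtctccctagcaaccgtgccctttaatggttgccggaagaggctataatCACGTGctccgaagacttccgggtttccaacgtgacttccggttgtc
SLC25A29: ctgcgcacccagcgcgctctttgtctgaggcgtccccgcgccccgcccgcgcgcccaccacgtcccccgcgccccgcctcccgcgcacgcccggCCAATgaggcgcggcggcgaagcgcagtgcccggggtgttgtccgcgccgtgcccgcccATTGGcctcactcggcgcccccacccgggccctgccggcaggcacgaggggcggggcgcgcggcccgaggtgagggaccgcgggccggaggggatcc

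The SLC25A36 promoter held an E-box 143 bases and a CCAAT box 98 bases before the start, the SLC25A46 promoter an E-box 47 bases before it, and the SLC25A29 promoter, with a GC content of 81.2%, CCAAT boxes in opposite orientations 156 and 97 bases before it. RefSeq promoters, from 250 bases before to 50 bases after the start, were at hand for 34 of the 40 members, of which 7 were higher, 19 lower and 8 not called. The E-box, the site of MYC and of other basic helix-loop-helix proteins, was present in 6 of these 34 (17.6%, against 7.43% of all 27305 promoters), namely those of SLC25A13, SLC25A36 and SLC25A46, which rose, SLC25A38, which fell, and SLC25A33 and SLC25A51, which were not called. The CCAAT box was present in 18 of 34 (52.9%, against 35.7% of all promoters), of which 3 belonged to members that rose and 11 to members that fell. GGAATG, the element bound by TEAD factors, was present on either strand in 2 of 34 (5.88%, against 14.0% of all), SLC25A23 and SLC25A28, and the ETS element CCGGAAG in 7 of 34 (20.6%, against 10.7%). None of the 4 motifs holds another within its letters, both strands were searched, and the motifs were chosen after the expression values were seen, so a match is a description of the letters only.

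Across the family more members fell than rose, and most changes were small. In the siAARS1 libraries 29 of 40 members passed the threshold (adjusted p under 0.05, limma), which is 72.5% against 70.7% of all genes tested. Of these, 9 were higher (22.5% of members, against 32.6% of all genes) and 20 were lower (50.0%, against 38.0%). The groups did not overlap for 36 members (85.1% of all genes), with 12 entirely higher (38.5% of all genes) and 24 entirely lower (46.6% of all genes). The members' log2 fold changes ran from -0.67 to 1.13 with a median of -0.16, where the median of all genes was -0.05. On the log2(CPM + 1) scale only SLC25A36 was called with a change of at least 2-fold, as were 12.3% of all genes. SLC25A46 fell just short on this scale (0.99) and stood at 202% of the control mean in CPM. The summed level of the 40 members was 3772 and 3778 CPM in the controls and 3373 and 3338 CPM after siAARS1, or 88.9% of the control mean. In bulk RNA a lower level in every cell and fewer cells of a type with the transcript cannot be told apart.

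The split depended on how the libraries were scaled. Dividing each library by its median gene moved the median of all genes from -0.05 to -0.27. Then 6 members were higher and 28 lower, beside 3306 and 8173 of all 14199 genes. The members' median minus that of all genes was -0.11 in both, which this scaling cannot change, since it shifts every gene of a library alike. After the correction for GC content and length (below) this difference was -0.022. The 148 other solute carrier genes tested (symbols made of SLC, a number, the letter A and a number) gave 47 higher and 71 lower with a median of -0.14. These are 31.8% and 48.0%, against 32.6% and 38.0% of all genes. After the GC correction the median was -0.115 for these genes and -0.028 for the SLC25A members. The difference between the 2 sets was not tested.

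**Figure D1:**
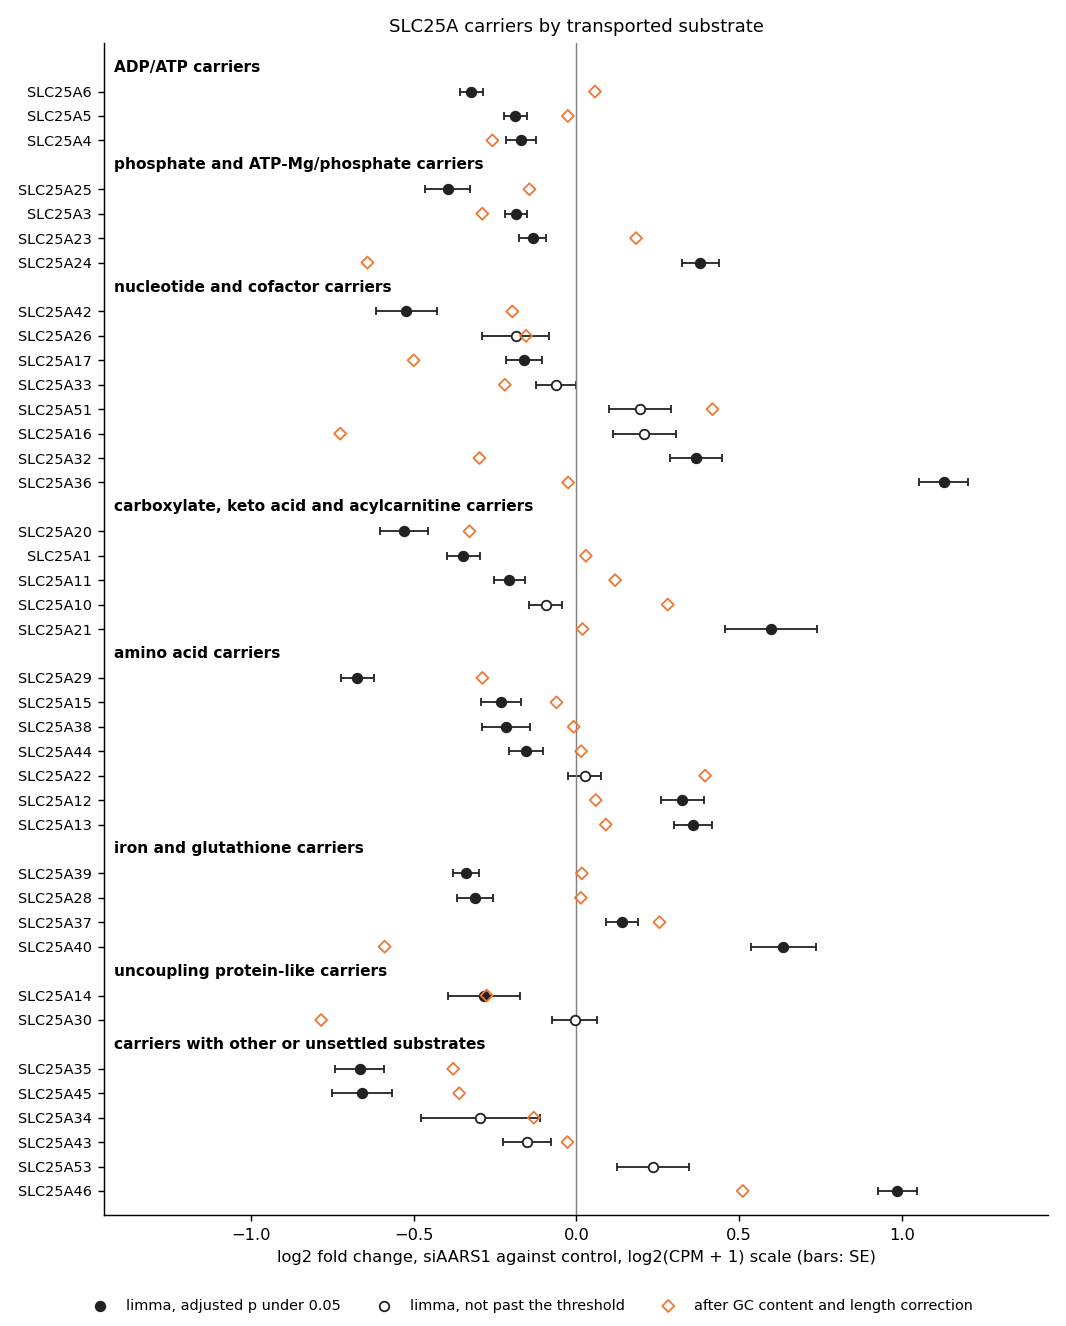
Log2 fold change of 39 of the 40 members (rows) in siAARS1 against control libraries (2 each) on the log2(CPM + 1) scale, grouped by transported substrate, with filled circles for members past the threshold in limma, open circles for the others, bars for the SE and orange diamonds for the value after correction for GC content and length, where the gene had an annotated transcript. SLC25A36 and SLC25A46 lie farthest to the right, the circles of all 3 ADP/ATP carriers lie left of 0 (the diamond of SLC25A6 right of it), and 11 called members change side between circle and diamond, while SLC25A37 is the called member that changes side under median scaling.

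Where 38.0% of all genes fell, all 3 ADP/ATP carriers listed fell, to between 79.9% and 88.7% of the control mean. They exchange cytosolic ADP for matrix ATP. SLC25A5 (ANT2, the isoform of proliferating cells, chrX:119468400-119471319, plus strand) measured 932 and 905 CPM in the control and 812 and 801 CPM in the siAARS1 libraries (log2 fold change -0.19, SE 0.0342, adjusted p = 5.23e-05, limma). SLC25A6 (ANT3) measured 479 and 469 CPM and then 383 and 374 CPM (log2 fold change -0.32, SE 0.0352, adjusted p = 4.49e-08). SLC25A4 (ANT1, the isoform of heart and muscle) measured 84.6 and 81.8 CPM and then 74.8 and 72.7 CPM (log2 fold change -0.17, SE 0.0468, adjusted p = 0.00277), a call lost with DESeq2 (-0.12, adjusted p = 0.0898). In none of the 3 did the groups overlap (85.1% of all genes had no overlap). Their summed level went from 1496 and 1456 CPM to 1270 and 1247 CPM, 85.3% of the control mean, and their share of all SLC25A reads from 39.6% and 38.5% to 37.6% and 37.4%. After correction for GC content and length SLC25A4 still fell (-0.26), whereas SLC25A5 (-0.03) and SLC25A6 (0.06) were not past the threshold. These genes share long near-identical stretches with one another and with processed pseudogenes, so how reads were divided among them is uncertain.

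Of the phosphate and ATP-Mg/phosphate carriers, 3 of 4 fell and 1 rose, where 38.0% of all genes fell and 32.6% rose. SLC25A3, which imports the phosphate used by ATP synthase, gave tightly grouped values of 616 and 614 CPM in the control and 540 and 541 CPM in the siAARS1 libraries (log2 fold change -0.19, SE 0.0338, adjusted p = 5.11e-05), and it fell in every alternative analysis, GC correction included (-0.29). The other members of this group are calcium-regulated carriers that load or unload the matrix adenine nucleotide pool, and they split. SLC25A24 rose from 55.4 and 63.2 CPM to 75.1 and 79.6 CPM (log2 fold change 0.38, SE 0.0573, adjusted p = 4.83e-06). SLC25A25 fell from 29.2 and 28.4 CPM to 21.6 and 21.7 CPM (log2 fold change -0.40, SE 0.0686, adjusted p = 2.83e-05), also with no overlap. SLC25A23 fell by 0.13 on the log2 scale (adjusted p = 0.00681), a call lost without control replicate 2 (-0.11) or siAARS1 replicate 2 (-0.081), and with edgeR (-0.096) and DESeq2 (-0.082). The GC correction turned SLC25A24 to -0.64 and SLC25A23 to 0.18, both past the threshold in the new direction, and left SLC25A25 lower at -0.14.

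The nucleotide and cofactor carriers held the member with the largest change of the family. SLC25A36, a pyrimidine nucleotide carrier (ENSG00000114120, chr3:140941830-140980961, plus strand), measured 13.2 and 14.5 CPM in the controls and 31.1 and 31.7 CPM after siAARS1, with no overlap, 227% of the control mean (log2 fold change 1.13, SE 0.0761, adjusted p = 1.78e-11). Its transcript has a GC content of 37.4%, and after the GC correction its log2 fold change was -0.03 (adjusted p = 0.756). SLC25A33, the other pyrimidine nucleotide carrier, measured 34.8 and 37.1 CPM and then 33.8 and 34.9 CPM, with overlapping groups (adjusted p = 0.369).

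SLC25A32, the mitochondrial folate carrier, rose from 16.2 and 18.0 CPM to 23.1 and 21.6 CPM (log2 fold change 0.37, SE 0.0797, adjusted p = 0.000344), a call lost under median scaling (0.15) and quantile normalization (0.14), and turned to -0.30 under the GC correction. SLC25A42, which imports coenzyme A, fell from 24.2 and 19.1 CPM to 15.1 and 14.3 CPM (log2 fold change -0.52, SE 0.0943, adjusted p = 4.57e-05), with control libraries that were farther apart than the siAARS1 libraries, and missed the threshold after the GC correction (-0.20, adjusted p = 0.0628). The peroxisomal cofactor carrier SLC25A17 fell by 0.16 on the log2 scale (adjusted p = 0.0118), a call lost without control replicate 2 (-0.13) and with DESeq2 (-0.11). The other 5 members of the group did not pass the threshold, among them SLC25A26 for S-adenosylmethionine (log2 fold change -0.19), SLC25A51 for NAD+ (0.20) and SLC25A16 (0.21).

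Among the carboxylate, keto acid and acylcarnitine carriers 3 of 5 fell and 1 rose, where 38.0% of all genes fell and 32.6% rose. SLC25A20, which exchanges acylcarnitines for carnitine in fatty acid oxidation, measured 26.8 and 25.7 CPM in the control and 17.2 and 18.6 CPM in the siAARS1 libraries, 68.1% of the control mean (log2 fold change -0.53, SE 0.0747, adjusted p = 2e-06), and fell in every alternative analysis (-0.33 after the GC correction). SLC25A1, which exports citrate for fatty acid and sterol synthesis, measured 104 and 117 CPM and then 84.1 and 89.0 CPM (log2 fold change -0.35, SE 0.0518, adjusted p = 4.25e-06). SLC25A11, the oxoglutarate/malate carrier, measured 70.2 and 68.9 CPM and then 60.9 and 59.5 CPM (log2 fold change -0.21, SE 0.0488, adjusted p = 0.000807). In none of these 3 did the groups overlap (85.1% of all genes had no overlap). The GC correction placed SLC25A1 at 0.03, no longer past the threshold, and SLC25A11 at 0.12, past it in the other direction. The oxoadipate carrier SLC25A21 rose from 2.29 and 3.18 CPM to 4.60 and 4.63 CPM (log2 fold change 0.60, SE 0.142, adjusted p = 0.00081, and 0.02 after the GC correction), and SLC25A10, the dicarboxylate carrier, was not past the threshold at -0.09.

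Where 38.0% of all genes fell and 32.6% rose, 4 of 7 amino acid carriers fell and 2 rose. Both that rose are the aspartate/glutamate carriers of the malate-aspartate shuttle. SLC25A12 (aralar) went from 32.4 and 33.4 CPM to 38.8 and 44.3 CPM (log2 fold change 0.32, SE 0.0658, adjusted p = 0.000167). SLC25A13 (citrin) went from 34.7 and 32.9 CPM to 43.2 and 43.9 CPM (log2 fold change 0.36, SE 0.0589, adjusted p = 1.48e-05). Neither pair of groups overlapped. Their direction held in every alternative, but neither passed the threshold after the GC correction (0.06 and 0.09), and SLC25A12 also missed it under median scaling (0.11) and quantile normalization.

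SLC25A29, a carrier of basic amino acids such as arginine and lysine (ENSG00000197119, chr14:100291111-100306547, minus strand), had the largest fall of the family on the log2(CPM + 1) scale. It measured 107 and 119 CPM in the control and 71.4 and 69.9 CPM in the siAARS1 libraries, 62.3% of the control mean (log2 fold change -0.67, SE 0.0502, adjusted p = 9.88e-11), and it fell in every alternative analysis (-0.29 after the GC correction, adjusted p = 4.98e-06). As a share of the control mean, SLC25A45 (61.0%) and SLC25A35 (61.7%) fell slightly further. SLC25A15 for ornithine, SLC25A38 for glycine and SLC25A44 for branched-chain amino acids fell by 0.23, 0.22 and 0.16 on the log2 scale, and none of the 3 was past the threshold after the GC correction (-0.06, -0.01 and 0.01). The call of SLC25A38 was lost without control replicate 1 (-0.14) or siAARS1 replicate 1 (-0.19), and that of SLC25A44 without control replicate 1 (-0.16), control replicate 2 (-0.16) or siAARS1 replicate 1 (-0.13), and DESeq2 called none of SLC25A15 (-0.19), SLC25A38 (-0.17) and SLC25A44 (-0.11). The glutamate carrier SLC25A22 gave overlapping groups (68.9 and 71.3 CPM against 74.5 and 68.3 CPM).

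The iron and glutathione carriers moved in opposite directions within each pair in the uncorrected fit, which did not hold for the mitoferrins under median scaling or the GC correction, and the glutathione pair was turned round by the latter. The mitoferrins bring iron in for heme and iron-sulfur cluster synthesis. SLC25A28 (mitoferrin 2) fell from 50.0 and 48.1 CPM to 39.5 and 39.2 CPM (log2 fold change -0.31, SE 0.0556, adjusted p = 4.17e-05). SLC25A37 (mitoferrin 1) went from 65.7 and 67.2 CPM to 71.2 and 75.4 CPM (log2 fold change 0.14, SE 0.0492, adjusted p = 0.0155), a rise that turned to -0.080 under median scaling and whose call was lost under quantile normalization (0.056) and without control replicate 1 (0.12) or siAARS1 replicate 2 (0.099). Of the glutathione carriers, SLC25A39 fell from 273 and 280 CPM to 226 and 211 CPM (log2 fold change -0.34, SE 0.04, adjusted p = 1.63e-07). SLC25A40, its relative, rose from 9.36 and 9.58 CPM to 13.9 and 16.8 CPM (log2 fold change 0.64, SE 0.0999, adjusted p = 8.46e-06). In all 4 the groups did not overlap, as in 85.1% of all genes. After the GC correction SLC25A28 and SLC25A39 stood at 0.01 and 0.02, SLC25A40 at -0.59 and SLC25A37 at 0.25.

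Members with other or unsettled substrates included a rise and a pair of falls that held throughout. SLC25A46 (ENSG00000164209, chr5:110738136-110765161, plus strand) is an atypical member that sits in the outer membrane and takes part in the shaping of mitochondria, and it is mutated in hereditary optic atrophy with neuropathy. It measured 24.5 and 24.8 CPM in the control and 49.9 and 49.9 CPM in the siAARS1 libraries, 202% of the control mean (log2 fold change 0.99, SE 0.0597, adjusted p = 2.75e-12), and it rose in every alternative analysis, with 0.51 after the GC correction (adjusted p = 9.31e-08). SLC25A35 fell from 27.3 and 27.4 CPM to 17.7 and 16.1 CPM (log2 fold change -0.67, SE 0.0751, adjusted p = 8.02e-08). SLC25A45 fell from 15.9 and 15.8 CPM to 9.33 and 10.0 CPM (log2 fold change -0.66, SE 0.0914, adjusted p = 1.6e-06). After the GC correction they were still lower, at -0.38 and -0.36. SLC25A34, SLC25A43 and SLC25A53 did not pass the threshold, with log2 fold changes of -0.30, -0.15 and 0.23, and SLC25A34, the member with the lowest level, had 1.14 and 1.23 CPM in the control and 1.10 and 0.511 CPM in the siAARS1 libraries. Of the members related to uncoupling proteins, SLC25A14 fell by 0.28 on the log2 scale (adjusted p = 0.027), a call lost without control replicate 2 (-0.20), siAARS1 replicate 1 (-0.28) or siAARS1 replicate 2 (-0.29), and with edgeR or DESeq2. SLC25A30 stood at -0.01 and was lower under median scaling (-0.23), quantile normalization (-0.21) and the GC correction (-0.78), the lowest corrected value of the family.

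**Figure D2:**
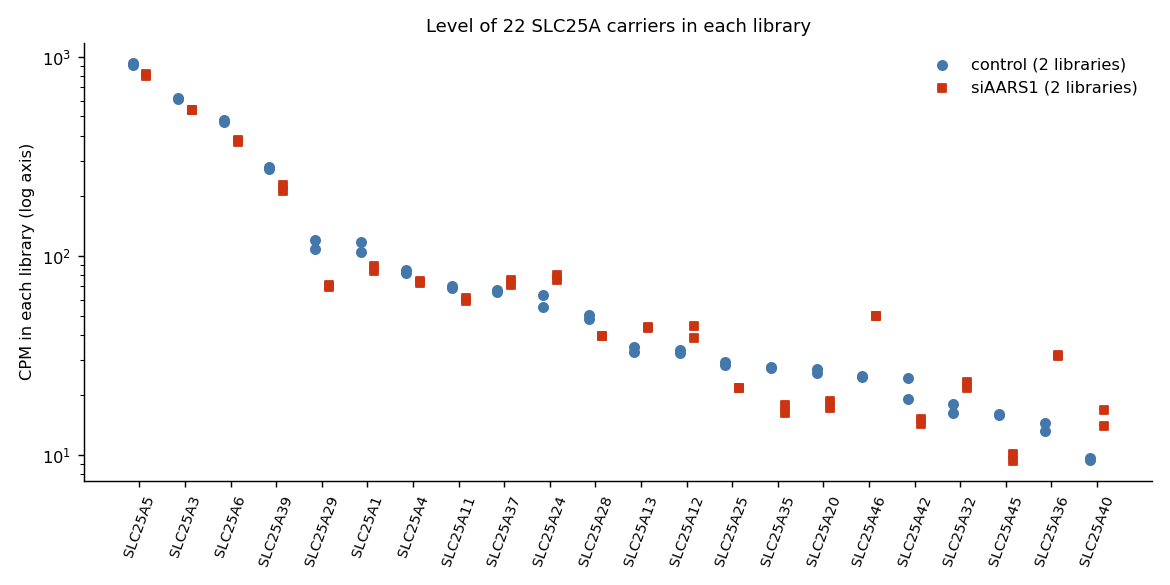
CPM (log axis) of 22 members, namely the core members, the largest rises and falls and the relatives called in opposite directions, with circles for the 2 control and squares for the 2 siAARS1 libraries, in order of the control mean. SLC25A36 and SLC25A46 show the widest gaps upward, at 227% and 202% of the control mean. Circles and squares do not overlap for any of the 22, as in 85.1% of all genes. The largest rises and falls were chosen only among members with no overlap.

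Levels of different members were compared per kilobase of transcript (CPM per kb, with 1 transcript per gene). SLC25A5 led the family with 732 and 711 CPM per kb in the control libraries, followed by SLC25A3 with 367 and 366 and SLC25A6 with 232 and 227 CPM per kb, and then SLC25A39 with 170 and 174 CPM per kb. SLC25A1 followed at 63.2 and 70.9 and SLC25A23 at 59.6 and 61.3 CPM per kb, and the 2 ranges did not overlap. On the CPM scale, SLC25A3, SLC25A5 and SLC25A6 together took 53.7% and 52.6% of all SLC25A reads in the control and 51.4% and 51.4% in the siAARS1 libraries.

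Ratios of close relatives within a library do not depend on how that library was scaled, but the correction for GC content and length can change them. With 2 libraries against 2 the exact two-sided permutation test cannot go below p = 0.333, so the 8 pairs examined are a description. SLC25A39 over SLC25A40 was 29.2 in both control libraries and 16.3 and 12.6 in the siAARS1 libraries. SLC25A33 over SLC25A36 was 2.64 and 2.56 and then 1.09 and 1.10, and SLC25A24 over SLC25A25 was 1.90 and 2.23 and then 3.48 and 3.67. The pyrimidine nucleotide carriers went from an excess of SLC25A33 reads to near equal numbers. The mitoferrin ratio SLC25A28 over SLC25A37 was 0.762 and 0.716 in the control and 0.555 and 0.520 in the siAARS1 libraries. SLC25A5 over SLC25A6 rose little, from 1.95 and 1.93 to 2.12 and 2.14, and SLC25A12 over SLC25A13 overlapped, with 0.935 and 1.02 against 0.897 and 1.01. SLC25A14 over SLC25A30 was 0.278 and 0.335 and then 0.251 and 0.239. In all 6 pairs whose groups did not overlap, the member that gained was the one of lower transcript GC content. For example, SLC25A40 has 34.2% against 62.0% for SLC25A39, SLC25A36 37.4% against 45.7% for SLC25A33, SLC25A24 38.7% against 55.7% for SLC25A25, and SLC25A37 50.1% against 58.1% for SLC25A28. By the corrected log2 fold changes, SLC25A39 and SLC25A40 (0.02 and -0.59) and SLC25A24 and SLC25A25 (-0.64 and -0.14) differed the other way round. So did SLC25A5 and SLC25A6 (-0.03 and 0.06) and SLC25A14 and SLC25A30 (-0.28 and -0.78). SLC25A33 and SLC25A36 (-0.22 and -0.03) and SLC25A28 and SLC25A37 (0.01 and 0.25) kept their order.

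**Figure D3:**
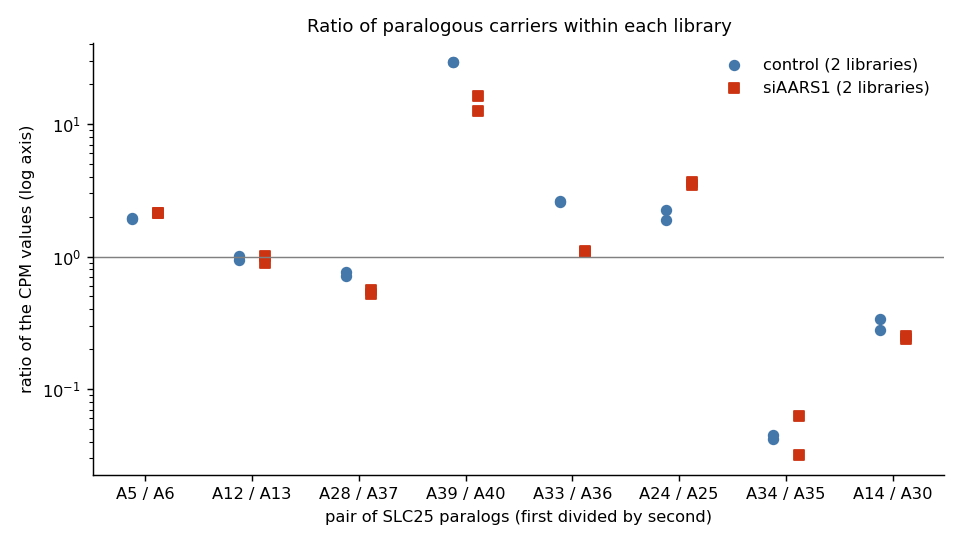
Ratio of the CPM values of 8 pairs of SLC25 relatives within each library (log axis), with circles for control and squares for siAARS1 libraries (2 each). SLC25A39 over SLC25A40 and SLC25A33 over SLC25A36 fall and SLC25A24 over SLC25A25 rises with no overlap, whereas SLC25A12 over SLC25A13 and SLC25A34 over SLC25A35 overlap.

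Members that rose had transcripts poorer in GC than members that fell. The median GC content was 40.2% for the 9 that rose and 55.6% for the 20 that fell, and the median transcript length was 3136 and 1980 bases. Across the 39 members with an annotated transcript the log2 fold change followed GC content with a Spearman rho of -0.71 and length with 0.52, and across all 13819 genes with -0.65 and 0.29, where genes share the same 4 libraries and are not independent. Of the 8 members in the lowest GC quintile of all genes (up to 41.5%), 6 rose, none fell and 2 (SLC25A16 and SLC25A30) did not pass the threshold, and the median of all genes there was 0.77. Of the 7 members in the next quintile (up to 46.6%), 2 rose and 4 fell (median -0.16), where the median of all genes was 0.21. Of the 10 members between 46.6% and 52.7%, 1 rose and 5 fell (median of all genes -0.11). Of the 6 members between 52.7% and 59.2% all fell (median of all genes -0.24), and of the 8 members above that, 5 fell and none rose (median of all genes -0.29). The shares of all genes called within each quintile were not counted, so these member counts are a description.

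The trend of each library with GC content and length was then removed as a smooth surface, a step that cannot spare a true change tied to them. Of 39 members 23 were then past the threshold (66.2% of all genes), 8 higher (32.8% of all genes) and 15 lower (33.4% of all genes), and the median was -0.03, against -0.01 for all genes. Of the 9 members that had risen, 2 remained higher (SLC25A37 and SLC25A46), 3 became lower (SLC25A24, SLC25A32 and SLC25A40) and 4 were no longer past the threshold. Of the 20 that had fallen, 9 remained lower, 2 became higher (SLC25A11 and SLC25A23) and 9 were no longer past it. Of the 10 that had not been called, 4 became higher, among them SLC25A10 (0.28), SLC25A22 (0.40) and SLC25A51 (0.42), and 3 became lower, SLC25A16 (-0.73), SLC25A30 (-0.78) and SLC25A33 (-0.22). SLC25A3, SLC25A20, SLC25A29, SLC25A35 and SLC25A45 (lower) and SLC25A46 (higher) were the 6 members that kept their direction and call in all alternatives.

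**Figure D4:**
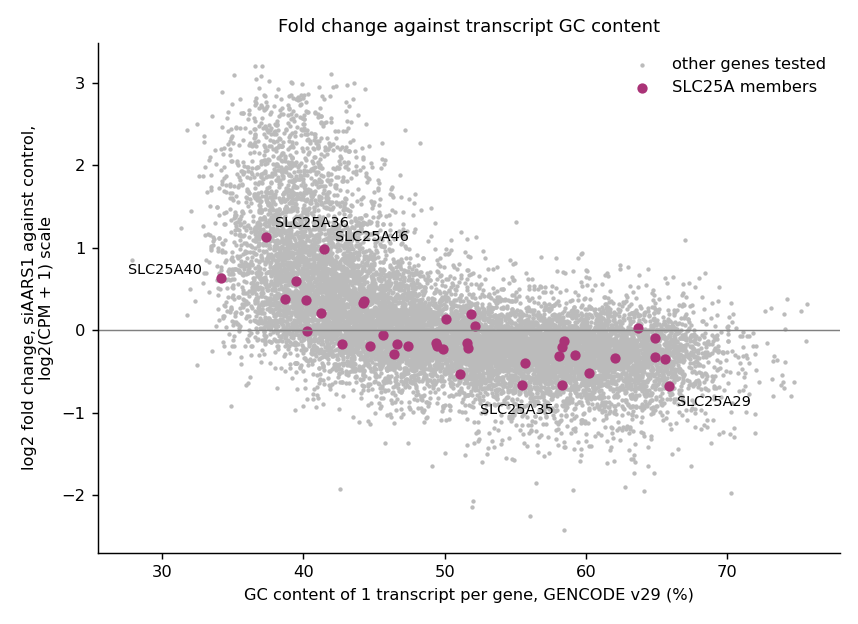
Log2 fold change in siAARS1 against control on the log2(CPM + 1) scale (vertical axis) against the GC content of 1 transcript per gene in percent (horizontal axis), with small grey points for the other genes tested and large points for 39 SLC25A members. Members follow the slope of the grey points, with SLC25A36, SLC25A46 and SLC25A40 at the upper left and SLC25A29 at the lower right.

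Of the 40 members, 14 overlap another listed gene on the genome by gene span, introns included, always on the opposite strand. The sources do not say whether counting used the strand, so reads from exon bases shared by such a pair could not be told apart. How many exon bases the pairs share was not measured. SLC25A40 overlaps DBF4, a cell cycle kinase subunit, which rose from 11.1 and 11.5 CPM to 44.5 and 47.9 CPM. SLC25A12 overlaps HAT1, a histone acetyltransferase, which rose from 33.0 and 38.3 CPM to 82.8 and 93.4 CPM, and SLC25A32 overlaps DCAF13, which rose from 27.6 and 28.1 CPM to 54.5 and 58.7 CPM. These 3 members and their partners moved the same way, with the larger change in the partner. Some partners moved against the member, since SLC25A25-AS1 rose (0.63) where SLC25A25 fell and SLC25A21-AS1 fell (-0.57) where SLC25A21 rose. SLC25A21 also overlaps PAX9, which rose with it (0.20). RNF167 fell with SLC25A11 (-0.28), and METAP1D rose with SLC25A12 (0.41). The partners of SLC25A29 and SLC25A35 (AL157871.1 and RANGRF) did not pass the threshold, and no listed gene overlapped SLC25A36 or SLC25A46.

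Genes that work beside the carriers were read from the same fit. The TIM22 import pathway, which takes carriers from the outer to the inner membrane, held 16 genes tested, with a median log2 fold change of 0.03. Of these, 4 rose (25%, against 32.6% of all genes) and 1 fell (6.25%, against 38.0%). Under median scaling 2 were higher and 11 lower, beside 3306 and 8173 of all 14199 genes. TIMM9, an intermembrane space chaperone of carrier precursors, rose from 20.8 and 20.1 CPM to 29.1 and 28.3 CPM (log2 fold change 0.47, adjusted p = 3.81e-06). The receptor TOMM70 (listed as TOMM70A) rose from 57.0 and 54.4 CPM to 73.4 and 74.4 CPM (0.40, adjusted p = 2.99e-07) and the receptor TOMM20 from 287 and 280 CPM to 330 and 339 CPM (0.24, adjusted p = 6.12e-06, and 0.017, not past the threshold, under median scaling). After the GC correction TIMM9 was still higher (0.23), and TOMM70 (-0.22) and TOMM20 (-0.41) were lower.

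Of the malate-aspartate shuttle enzymes 3 of 4 fell, where 38.0% of all genes did. GOT1 went from 151 and 147 CPM to 122 and 119 CPM (log2 fold change -0.30, adjusted p = 1.18e-06), MDH2 from 713 and 727 CPM to 614 and 582 CPM (-0.27, adjusted p = 1.06e-06) and GOT2 from 194 and 189 CPM to 168 and 161 CPM (-0.22, adjusted p = 5.05e-05). MDH1 stood at -0.07 (adjusted p = 0.0866). After the GC correction GOT1 (-0.09) and MDH1 (-0.09) were lower, and MDH2 (-0.04) and GOT2 (-0.05) were not past the threshold.

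Of the carnitine shuttle enzymes 3 of 5 fell, where 38.0% of all genes did. CRAT, the carnitine acetyltransferase, went from 39.4 and 39.7 CPM to 20.3 and 21.2 CPM (log2 fold change -0.90, adjusted p = 6.23e-11). CPT2, which re-forms acyl-CoA in the matrix, went from 66.2 and 71.3 CPM to 45.7 and 47.9 CPM (-0.54, adjusted p = 1.05e-08), and CPT1A, the entry enzyme of fatty acid oxidation, from 275 and 268 CPM to 200.2 and 195 CPM (-0.46, adjusted p = 4.95e-10). All 3 were still lower after the GC correction (-0.55, -0.36 and -0.32). CPT1B (0.04) and CPT1C (0.13) did not pass the threshold, and CPT1B was higher after the GC correction (0.32).

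Family members that carry other symbols were read separately. UCP2, an uncoupling protein relative that exports C4 metabolites, fell from 141 and 148 CPM to 78.6 and 76.2 CPM (log2 fold change -0.89, adjusted p = 8.42e-14, and -0.56 after the GC correction). MTCH1, of the outer membrane, fell from 249.5 and 253 CPM to 194 and 191 CPM (-0.38, adjusted p = 7.49e-09), and was not past the threshold after the GC correction (-0.046). MTCH2 stood at 0.01 (adjusted p = 0.845), and was lower after the GC correction (-0.40). UCP3 was under the filter at 0.725 to 1.23 CPM over the 4 libraries, and UCP1 was not analysed here. Of 16 other mitochondrial membrane transporters, 4 rose and 7 fell (25% and 43.8%, against 32.6% and 38.0% of all genes). Under median scaling 2 were higher and 12 lower, beside 3306 and 8173 of all 14199 genes. SFXN3, a sideroflexin, fell from 63.7 and 63.3 CPM to 27.6 and 28.6 CPM (-1.15, adjusted p = 6.57e-14), SLC8B1, the mitochondrial sodium/calcium exchanger, fell from 10.0 and 9.77 CPM to 5.70 and 4.84 CPM (-0.80, adjusted p = 2.01e-06), and ABCB10 rose from 44.8 and 48.3 CPM to 62.9 and 64.1 CPM (0.44, adjusted p = 2.48e-07). All 3 kept their direction and call after the GC correction.

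**Figure D5:**
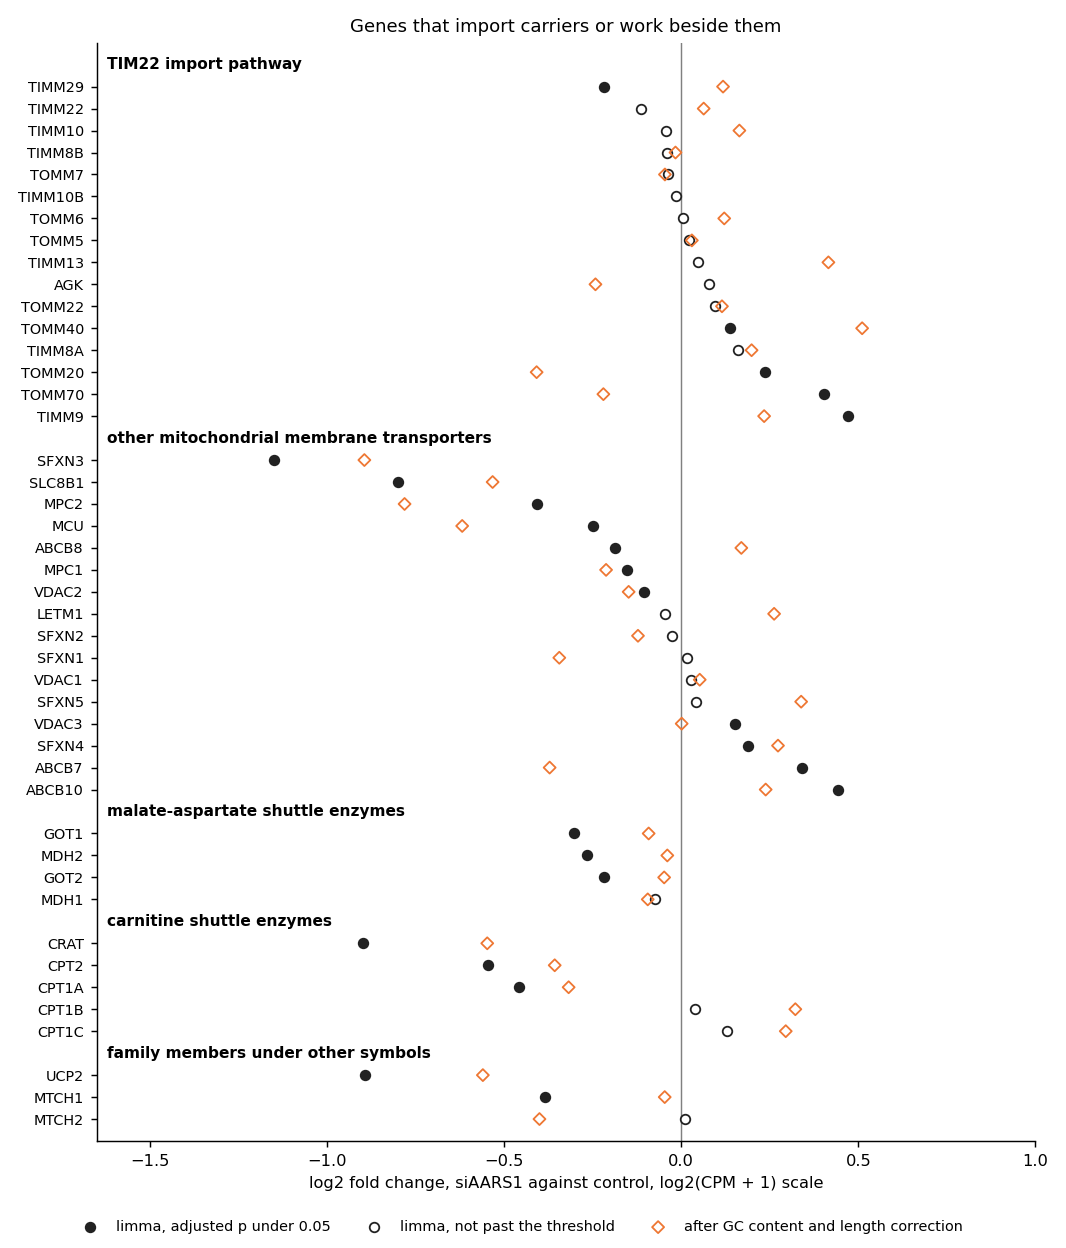
Log2 fold change in siAARS1 against control (2 libraries each) on the log2(CPM + 1) scale for genes that import carriers or work beside them (rows), with filled circles past the threshold in limma, open circles not past it and orange diamonds after the correction for GC content and length. The import genes lie on both sides of 0, whereas CRAT, CPT2, CPT1A and UCP2 lie left of 0 with both symbols.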

How the data were processed

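The authors deposited 1 table of CPM values for the 4 libraries. The submitters' processing notes name RSEM 1.3.3 and hg38, and the aligner, the annotation, the use of strand and the filter behind the table are not given in the sources used here. Each CPM value was a whole multiple of the value of 1 read (0.0293 to 0.0324 CPM) for 100% of the deposited values, within 0.0006 CPM, so reads were recovered, 30653210 to 33522573 per library. A count of 3 reads, the limit that 0 reads allow, was 0.0880 to 0.0971 CPM and covers counting error only. Replicates differed beyond sampling noise (chi-square per gene 3.63 and 3.62) and were kept apart.

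Log2(CPM + 1) values, a scale that understates changes of low genes, were fitted in R 4.3.3 by limma 3.58.1 (empirical Bayes with a mean-variance trend) with siAARS1 against control, over the 14199 genes that reached a group mean of 1 CPM, with Benjamini-Hochberg adjustment over all of them and a threshold of 0.05. Alternatives were a pseudocount of 0.1, no filter, median scaling, quantile normalization, a threshold of 0.01, the replicate number as a block, each library left out, edgeR 4.0.16 (quasi-likelihood, TMM) and DESeq2 1.42.0 on recovered reads, and removal of the trend with GC content and length (mgcv 1.9.3, GENCODE v29 transcripts, 13819 genes), with and without the block. On counts simulated from the control means of 13823 genes, 92% and 98% of genes changed by -1 and 1 on the log2 scale were called, and 80% and 90% of those changed by -0.5 and 0.5. The simulation changed few genes, fixed the spread between replicates and held no trend with GC content. These shares therefore need not hold for the real libraries.

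Members and gene lists were chosen with earlier results of these data known, so no set test was run. All members may be named. Values in every library are given for core members (SLC25A1, SLC25A3, SLC25A4, SLC25A5, SLC25A6, SLC25A11, SLC25A12, SLC25A13 and SLC25A20), for the 6 largest rises and 6 largest falls among members past the threshold with no overlap and at least 5 CPM in the higher group, and for relatives called in opposite directions, with values of further members added after they were seen. From each other list, 3 called genes at most are named by size of change, and lists of at most 5 in full. Gene coordinates come from GENCODE v29 (GRCh38), and promoters are RefSeq's on GRCh38.p14. Values of 1 member, which is included in the counts and medians, are not reported here.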

Additional observations from a re-analysis of the deposited data

How the results depend on the processing

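A pseudocount of 0.1 and no filter on low CPM changed no call or direction of the members. A threshold of 0.01 left 24 members called (8 higher and 16 lower), beside 8714 of all 14199 genes. The members' median log2 fold change was -0.38 under median scaling, -0.24 under quantile normalization and -0.028 once the trend with GC content and length was removed, with or without the replicate block. Counts were 32 called under quantile normalization (6 higher and 26 lower), 30 with edgeR (12 and 18) and 22 with DESeq2 (9 and 13, where 20 were lower in limma). Of all 14199 genes, 10760, 9806 and 8355 were called in these fits, and 37.0%, 50.3% and 53.8% of those were higher. Without any 1 library the median ran from -0.165 to -0.145. Direction reversed under median scaling for SLC25A37 (-0.080), SLC25A16 (-0.012), SLC25A51 (-0.023) and SLC25A22 (-0.19), and under quantile normalization for SLC25A16 (-0.030), SLC25A51 (-0.051) and SLC25A22 (-0.054). SLC25A30 turned to 0.032 with edgeR and 0.046 with DESeq2. The GC content and length correction, with or without the replicate block, turned SLC25A36 to -0.026, SLC25A24 to -0.64, SLC25A40 to -0.59, SLC25A32 to -0.30, SLC25A16 to -0.73, SLC25A6 to 0.057, SLC25A39 to 0.017, SLC25A1 to 0.029, SLC25A28 to 0.013, SLC25A11 to 0.12, SLC25A44 to 0.014, SLC25A23 to 0.18 and SLC25A10 to 0.28, and the cause was not tested. Without 1 library, SLC25A30 ran from -0.045 to 0.034 and SLC25A22 from -0.037 to 0.087. Members newly past the threshold were SLC25A51 without control replicate 2 (0.30) and SLC25A10 (-0.16) and SLC25A34 (-0.53) without siAARS1 replicate 1. A lone library left in a group was taken to vary like the other group. Of the 29 called members, 19 kept call and direction under all alternatives other than the GC correction.

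The replicate numbers do not state pairs, and same-numbered libraries deviated together with a correlation of 0.118 over 14199 genes. With the replicate number as a block 33 members were called (12 higher and 21 lower, 10389 of all genes), with SLC25A16, SLC25A43, SLC25A51 and SLC25A53 added and no call lost.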
